A study of Mus musculus with 6 samples.

Results

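The 10 genes described here mark the layers of the embryonic ventricular wall or carry the neuregulin signal between its layers. They are Nppa, Nppb, Bmp10, Gja5 and Irx3, which mark the trabeculae, Hey2 and Mycn, which mark the compact layer, and Nrg1, Erbb2 and Erbb4, a ligand and its receptors. They were chosen by symbol for what they are known to do, but with earlier results of these data known. Shares of them set against all genes are therefore descriptions. All 10 were among the 13843 genes of the deposited table.

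RNA of the ventricles of 6 single C57BL/6 mouse embryos of stage E12.5 was sequenced, after the atria and the valve region had been taken off. All 6 embryos were labelled as carrying a pair of floxed Vhl alleles. The 3 controls had wild-type Nkx2.5 and the 3 embryos labelled knockout had 1 Nkx2.5 allele with Cre, which is active in cardiac progenitors and removes the floxed part of Vhl, the gene for the protein that marks hypoxia-inducible factors for degradation. No embryos with Cre and intact Vhl were analysed here, so the Cre allele and the loss of Vhl cannot be told apart. Each library was 1 embryo and held 9067805 to 12592902 reads. Litter 1 gave control 1 and knockout 1, litter 2 gave control 2 and knockout 2, and litters 3 and 4 gave only control 3 and the library labelled knockout 3, per the labels. The series' design text speaks of 3 litters instead, and which is right was not settled here.

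In the midgestation ventricle, muscle projects into the lumen as trabeculae, while the outer compact layer stays thin and proliferates. Endocardial neuregulin acts on ErbB2 and ErbB4 in the muscle and is needed for trabeculae to form, and Bmp10 from the trabeculae sustains the growth of the wall. Trabecular muscle makes natriuretic peptides and the fast-conducting connexin Cx40, whereas Hey2 and Mycn are found mainly in the compact layer.

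The targeted gene was read first. Vhl (ENSMUSG00000033933) had normalized signals, which are reads divided by a size factor so that each library sums to between 987131 and 1017772, of 33.7, 36.3 and 38.6 in controls 1 to 3, 11.1 and 10.3 for knockouts 1 and 2, and 34.5 for the library labelled knockout 3. The last value lay among the controls and went against the label. Knockouts 1 and 2 were therefore compared with the 3 controls, and the library labelled knockout 3 was set apart. That choice makes the Vhl difference itself partly circular (log2 fold change -1.67, SE 0.11, limma with Benjamini-Hochberg adjustment, adjusted p = 0.00025). With all 6 libraries as labelled the difference was -1.14 (adjusted p = 0.77).

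In knockouts 1 and 2, Nppa and Nppb stood above every control, while Gja5, Hey2, Erbb2 and Erbb4 stood below every control, but 0 of the 10 genes passed limma over all genes. Their adjusted p values ran from 0.079 for Gja5 to 0.97 for Bmp10. In the same test 416 of the 13843 genes (3.01%) were called higher and 172 (1.24%) lower, numbers that came to between 146 and 297 and between 44 and 90 when 1 library was left out. At an unadjusted p under 0.05, 2 of the 10 were higher (Nppa and Nppb) and 3 lower (Gja5, Hey2 and Erbb4), against 9.74% and 8.05% of all genes. edgeR on the recovered reads called 0 of the 10, and DESeq2 called 1, Hey2. Of the 13843 genes, edgeR called 407 higher and 163 lower. DESeq2 called more than limma, 550 higher and 276 lower. When only littermates were compared (litters 1 and 2, blocked by litter), limma called Nppb higher and Gja5, Erbb2 and Erbb4 lower, against 4.92% of all genes called higher and 3.21% lower. That fit leaves 1 residual degree of freedom, so its error is mostly borrowed from other genes.

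Both knockouts lay above all controls for 3 of the 10 genes (Nppa, Nppb and Nrg1), where 18.1% of all genes did, and below all controls for 4 of the 10, where 17% did. With all 6 libraries as labelled, limma called 0 of the 10 and 0% of all genes. The 2 of the 10 at an unadjusted limma p under 0.05 over all 6 were Gja5 and Irx3, both lower. The share of all genes at that threshold over all 6 was not counted here, so this count has no background beside it. In that fit every gene named below with a fold change had an adjusted limma p of 0.77 or more. In bulk RNA, fewer cells of a type and less RNA per cell cannot be told apart. The direction was the same in both litters for 9 of the 10 genes (4 higher and 5 lower), as it was for 64.4% of all genes, with Bmp10 the exception.

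**Figure D1:**
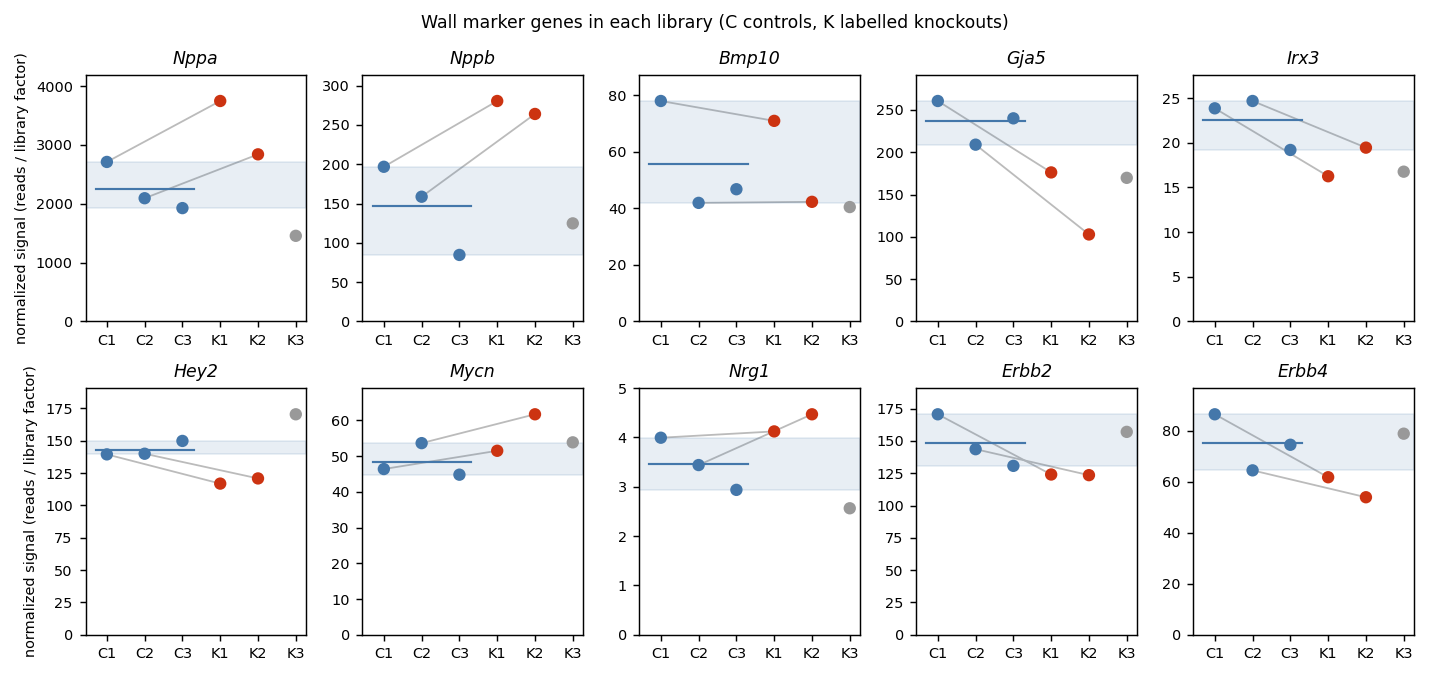
Normalized signal (reads over the library's size factor, linear axis from 0) of the 10 genes in controls C1 to C3, knockouts K1 and K2 and the library labelled knockout 3 (K3). Bars are control means, bands the range of the controls and grey lines join littermates. Nppa, Nppb, Mycn and Nrg1 are higher in the knockout along both lines (3748 against 2712 for Nppa in litter 1), and Gja5, Irx3, Hey2, Erbb2 and Erbb4 lower along both.

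Levels per kilobase of exon allow different genes to be set roughly side by side. The length used was the union of a gene's annotated exons, not that of the transcripts present, so the order is approximate. On this scale the control mean of Nppa was 2595 ± 478 (SD, n = 3), above 99.89% of all genes. Nppb followed at 188 ± 73.0, then Gja5 at 41.2 ± 4.52, Hey2 at 31.2 ± 1.28 and Erbb2 at 28.5 ± 3.91. The ranges of Hey2 (30.4 to 32.6) and Erbb2 (25.1 to 32.8) overlapped, so their order is not resolved. Mycn stood at 14.7 ± 1.43 and Bmp10 at 12.4 ± 4.36, again with overlapping ranges. Irx3 at 8.17 ± 1.07, Erbb4 at 6.09 ± 0.892 and Nrg1 at 0.334 ± 0.0511 came last. The ranges of Irx3 and Erbb4 overlapped by a narrow margin (6.95 to 8.93 against 5.22 to 7.004). The controls themselves differed most for Nppb, whose highest value was 2.33 times its lowest, and least for Hey2, at 1.08 times.

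The start-site sequences of 9 of the 10 genes were matched in RefSeq on GRCm38.p6, all except Nrg1. In the 250 bases before the RefSeq start, letters read by well-known heart and oxygen-response factors were searched on both strands. GATAA, the core read by GATA factors, occurred at 2 places each in Nppa, Nppb and Bmp10 and at 0 in the other 6, and 22.6% of 32851 mouse promoter windows hold it. ACGTG, the common core of hypoxia-response elements, occurred in 0 of the 9 (16.6% of windows), and its variant GCGTG in Hey2 alone, at 3 places (28.2% of windows). AAGTG, which NKX2-5 can read, was in 5 of the 9 (40.7% of windows), GGTGTG, read by T-box factors, in 4 (16.3%) and TGGGAA, the core of Notch's partner RBPJ, in 3 (21.6%). In Hey2, the TGGGAA match and the farthest GCGTG match, both on the other strand, share 2 bases. Letters found are a description of the window, and letters not found say only that this window lacks them. The windows of Nppa (chr4:148000472-148000721, plus strand) and Bmp10 (chr6:87428744-87428993, plus strand), trabecular genes with the same motif, and of Hey2 (chr10:30842802-30843033, minus strand), the compact-layer gene with the oxygen-response variant, are shown 5′ to 3′ to the first base before the annotated gene. Capitals mark GATAA, or TTATC on the other strand, in the first pair, and GCGTG, or CACGC on the other strand, in Hey2. The third Hey2 match lies inside the annotated gene and is not shown. Of the Nppb window, 112 of 250 bases lie inside the gene as GENCODE annotates it, both GATAA matches among them, and the windows of Gja5 and Irx3 lie inside their annotated genes entirely. Mycn has 78 such bases and Erbb2 has 14.
Nppa: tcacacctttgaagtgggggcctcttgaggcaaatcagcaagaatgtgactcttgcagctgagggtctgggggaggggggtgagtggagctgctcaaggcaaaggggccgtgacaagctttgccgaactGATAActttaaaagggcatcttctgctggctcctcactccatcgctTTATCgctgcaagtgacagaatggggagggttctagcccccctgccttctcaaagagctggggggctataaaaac
Bmp10: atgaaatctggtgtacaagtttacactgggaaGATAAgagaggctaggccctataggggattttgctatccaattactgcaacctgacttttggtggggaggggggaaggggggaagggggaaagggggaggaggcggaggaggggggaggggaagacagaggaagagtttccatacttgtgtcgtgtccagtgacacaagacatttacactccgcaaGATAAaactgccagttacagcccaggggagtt
Hey2: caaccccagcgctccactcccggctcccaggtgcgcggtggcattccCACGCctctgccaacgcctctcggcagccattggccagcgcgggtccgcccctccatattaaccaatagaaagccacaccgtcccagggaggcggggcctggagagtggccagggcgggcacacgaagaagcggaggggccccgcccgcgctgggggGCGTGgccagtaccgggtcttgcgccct

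Nppa (ENSMUSG00000041616, chr4:148000722-148002079, plus strand of GRCm38) encodes atrial natriuretic peptide, a hormone of trabecular and atrial muscle. Its normalized signal was 2712, 2095 and 1927 in controls 1 to 3, 3748 and 2841 for knockouts 1 and 2, and 1456 for the library labelled knockout 3. Both knockouts stood above every control, while the library labelled knockout 3 was the lowest of all. Nppa had a log2 fold change over the controls of 0.56 (SE 0.18, 95% interval 0.13 to 0.98), with an unadjusted limma p of 0.017 and an adjusted p of 0.16. Knockouts exceeded their own littermate controls by 0.47 in litter 1 and 0.44 in litter 2 on the log2 scale, and the block fit gave 0.45 (limma adjusted p = 0.063). With all 6 libraries as labelled the value was 0.17 (95% interval -0.58 to 0.92). Of its 865 exon bases, 532 are shared with the antisense gene Gm13054, whose signal stayed between 1.74 and 6.44, and the kit did not mark strand.

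Nppb (ENSMUSG00000029019, chr4:147985788-147987205, plus strand) lies next to Nppa and encodes brain natriuretic peptide, which stretched or stressed muscle releases. It had 197, 159 and 84.6 in the controls, 280.5 and 264 for knockouts 1 and 2, and 125 for the library labelled knockout 3. Both knockouts lay above all controls and the library labelled knockout 3 among them. Control 3 was the lowest of the 6 libraries. The log2 fold change of Nppb was 0.97 (SE 0.30, 95% interval 0.28 to 1.66, limma adjusted p = 0.14). Without control 3 it came to 0.62 and was called (limma adjusted p = 0.043). The littermate block fit rests on those same libraries, so its fold change of 0.62 had to follow (limma adjusted p = 0.00077). Log2 differences within the pairs were 0.51 and 0.73. Over all alternatives run the adjusted p of Nppb ran from 0.00077 to 0.81, the latter with all 6 libraries.

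Of the other genes of the natriuretic peptide system, 10 of 13 were measured. Among these 10, limma called 0 in either direction, against 3.01% of all genes higher and 1.24% lower. At an unadjusted limma p under 0.05 stood 2 of the 10, against 17.8% of all genes. Npr2, the receptor of C-type natriuretic peptide, stood at 29.5, 27.9 and 28.1 in the controls, 19.0 and 23.6 for knockouts 1 and 2, and 28.0 for the library labelled knockout 3 (log2 fold change -0.41, SE 0.12, limma adjusted p = 0.11). Npr3, the clearance receptor carried by endocardium, had 304 ± 38.7 in controls (SD, n = 3) against 328.5 and 291, so the groups overlapped. Corin, the protease that activates the precursor of Nppa, also overlapped, at 69.4 ± 12.8 (SD, n = 3) against 95.8 and 68.7.

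Bmp10 (ENSMUSG00000030046, chr6:87428994-87437677, plus strand) encodes a BMP ligand of trabecular muscle that keeps cardiomyocytes dividing. Bmp10 signal was 78.0, 42.0 and 46.8 in the controls, 71.0 and 42.3 for knockouts 1 and 2, and 40.5 for the library labelled knockout 3. Both embryos of litter 1 were high and the other 4 libraries low, so the values followed the litter and the groups overlapped. The log2 fold change was 0.03 (SE 0.29, 95% interval -0.63 to 0.70, limma adjusted p = 0.97). In the littermate block fit it was -0.06 with a narrower 95% interval of -0.27 to 0.15. Over the 6 libraries the genes most like Bmp10, by root mean square difference of centred log2 values, were Hspa8 (0.099), Ntn1 (0.166) and Gja1 (0.167), of 7767 genes searched. Hspa8, a heat shock cognate, had 2190 and 2198 in the litter 1 embryos and 1353 to 1399 in the others.

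Among the other BMP pathway genes, 28 of 32 were measured and 0 were called by limma, against 3.01% of all genes higher and 1.24% lower. At an unadjusted limma p under 0.05, 2 of the 28 were higher and 0 lower, against 9.74% and 8.05% of all genes. Both knockouts lay above all controls for 8 of the 28 (28.6%, against 18.1% of all genes) and below them for 1 (3.57%, against 17%). The median log2 fold change was 0.05 against -0.01 over all genes. Eng, an endothelial co-receptor that binds BMP9 and BMP10, had 245, 237.5 and 212 in controls, 269 and 337 for knockouts 1 and 2, and 207 for the library labelled knockout 3 (log2 fold change 0.38, SE 0.11, limma adjusted p = 0.11). Nog, a secreted BMP antagonist, was low in all libraries, with 1.33 to 2.94 in controls and 3.72 and 3.94 in knockouts 1 and 2 (0.65, SE 0.26, limma adjusted p = 0.24). It had 3.66 in the library labelled knockout 3, so all 3 labelled knockouts lay above the controls.

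Gja5 (ENSMUSG00000057123, chr3:96904693-97077416, plus strand) encodes Cx40, the gap-junction connexin of trabecular muscle and later of the conduction system. Signals were 260.5, 209 and 240.0 in the controls, 176 and 103 for knockouts 1 and 2, and 170 for the library labelled knockout 3. All 3 labelled knockouts were below all controls, which among the 10 genes held for Gja5 alone and over all genes for 4.65%. Gja5 had a log2 fold change of -0.80 (SE 0.20, 95% interval -1.27 to -0.33), with an unadjusted limma p of 0.0046 and an adjusted p of 0.079, the smallest of the 10. The size rested on knockout 2. Without it the value was -0.42, and without knockout 1 it was -1.19 and was called (limma adjusted p = 0.012). The block fit gave -0.79 (limma adjusted p = 0.00043), with -0.56 in litter 1 and -1.02 in litter 2. With all 6 libraries as labelled it was -0.69 (95% interval -1.15 to -0.24, limma adjusted p = 0.77), the highest p of the alternatives run, of which the block had the lowest. The exons of Gja5 share 165 bases with Gpr89 on the other strand.

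Of 20 connexin genes 5 were measured, and 0 were called by limma, against 3.01% of all genes higher and 1.24% lower. At an unadjusted limma p under 0.05 stood 2 of the 5, against 17.8% of all genes. Gja1, which encodes Cx43, the main connexin of working ventricular muscle, had 611, 443 and 382 in controls, 712 and 444 for knockouts 1 and 2, and 380 for the library labelled knockout 3 (log2 fold change 0.26, SE 0.23, limma adjusted p = 0.64). The ratio of Gja5 to Gja1 signal was 0.427, 0.471 and 0.629 in controls, 0.247 and 0.231 for knockouts 1 and 2, and 0.447 for the library labelled knockout 3. The ratio of Nppa to Gja5 signal was 10.4, 10.0 and 8.03 in controls, 21.3 and 27.6 for knockouts 1 and 2, and 8.58 for the library labelled knockout 3. In both ratios knockouts 1 and 2 stood apart from the other 4 libraries. For Nppa to Gja5 the separation from the controls had to follow, since Nppa stood above and Gja5 below every control. It adds nothing to the values of the genes themselves. The ratio of Gja5 to Hey2 signal ranged from 1.493 to 1.868 in controls. It was 1.506 and 0.85 for knockouts 1 and 2, and 0.9952 for the library labelled knockout 3. Knockout 1 thus lay among the controls for Gja5 to Hey2. These ratios compare libraries, not the levels of the genes, which differ in length.

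Irx3 (ENSMUSG00000031734, chr8:91798525-91802067, minus strand) encodes an Iroquois transcription factor of the trabecular and conducting muscle that is known to promote Gja5 expression. It had 23.9, 24.7 and 19.2 in the controls, 16.3 and 19.5 for knockouts 1 and 2, and 16.8 for the library labelled knockout 3. Knockout 2 came just above control 3, so the groups overlapped. Its log2 fold change was -0.32 (SE 0.14, 95% interval -0.65 to 0.01, limma adjusted p = 0.30), and the log2 differences from littermate controls were -0.53 and -0.33. Reads ranged from 183 to 294 a library, and 124 exon bases are shared with the antisense gene Irx3os. All 6 Iroquois genes were measured and 0 were called by limma, against 3.01% of all genes higher and 1.24% lower. At an unadjusted limma p under 0.05 stood 1 of the 6, against 17.8% of all genes. Irx6 was the only one outside the controls in both knockouts, at 9.21 and 10.1 against 6.70 ± 0.718 (SD, n = 3).

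Of the 15 other genes of the trabecular list, 0 were called by limma, 7 were below all controls in both knockouts (46.7%, against 17% of all genes) and 1 above, with a median log2 fold change of -0.22. In the littermate block fit 5 of the 15 were called lower and 0 higher, against 3.21% and 4.92% of all genes. That fit leaves 1 residual degree of freedom. Cpne5, which encodes a calcium-dependent membrane-binding protein, had 10.7, 12.8 and 20.1 in controls, 4.61 and 7.45 for knockouts 1 and 2, and 10.6 for the library labelled knockout 3. Its log2 fold change was -1.13 (SE 0.28, limma adjusted p = 0.073, and 0.0094 with the block). Etv1, a transcription factor of fast-conducting muscle, had 31.3, 37.8 and 30.5 against 21.7 and 23.8, and 36.1 in the library labelled knockout 3 (-0.52, SE 0.12, limma adjusted p = 0.057, and 0.0084 with the block). Knockouts 1 and 2 lay below every control for Cpne5 and Etv1, and the library labelled knockout 3 did so for Cpne5, just under control 1, but not for Etv1.

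Hey2 (ENSMUSG00000019789, chr10:30832359-30842801, minus strand) encodes a Notch-related repressor that keeps the compact layer from taking on trabecular and atrial character. Its signal was 139.5, 140.0 and 150 in the controls, 117 and 121 for knockouts 1 and 2, and 170.5 for the library labelled knockout 3. The controls were tightly grouped, the knockouts below them and the library labelled knockout 3 above. The log2 fold change was -0.26 (SE 0.07, 95% interval -0.42 to -0.10), with an unadjusted limma p of 0.0053 and an adjusted p of 0.086, while DESeq2 gave -0.27 (adjusted p = 0.044). It was not called under any other alternative run, and all 6 libraries gave -0.09 (limma adjusted p = 0.90, the highest of the alternatives). The genes most like Hey2 were Zfp60 (root mean square difference 0.025), Timm9 (0.044) and Rasl10b (0.047).

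Mycn (ENSMUSG00000037169, chr12:12936093-12941914, minus strand) encodes N-Myc, which drives proliferation of compact-layer muscle. It had 46.4, 53.6 and 44.8 in the controls, 51.5 and 61.7 for knockouts 1 and 2, and 53.8 for the library labelled knockout 3. Each knockout was above its littermate control, by log2 differences of 0.15 and 0.20, but knockout 1 lay among the controls. Mycn had a log2 fold change of 0.22 (SE 0.11, 95% interval -0.04 to 0.49, limma adjusted p = 0.36). The ratio of Hey2 to Mycn signal was 3.01, 2.61 and 3.35 in controls, 2.27 and 1.96 for knockouts 1 and 2, and 3.17 for the library labelled knockout 3. Both knockouts had a lower ratio than any other library, with Hey2 below its controls and Mycn among or above its own. The genes most like Mycn were Prr13 (root mean square difference 0.03), Mrtfa (0.031) and Ddx41 (0.047).

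Of the 11 other genes of the compact-layer list, limma called 1 higher and 0 lower (3.01% and 1.24% of all genes), with a median of 0.03. Both knockouts lay above all controls for 4 of the 11 (36.4%, against 18.1% of all genes) and below them for 1. At an unadjusted limma p under 0.05, 4 of the 11 were higher and 0 lower, against 9.74% and 8.05% of all genes. Fzd1, a Wnt receptor, rose from 34.5, 47.1 and 45.8 in the controls to 71.1 and 83.9 in knockouts 1 and 2, with 39.3 in the library labelled knockout 3 (log2 fold change 0.86, SE 0.14, limma adjusted p = 0.018, but 0.070 without knockout 1 and 0.11 without knockout 2). Ccnd1, the D-type cyclin of cell-cycle entry, had 145, 150 and 144 in the controls, 175 and 185 for knockouts 1 and 2, and 128 for the library labelled knockout 3 (0.29, SE 0.07, limma adjusted p = 0.055). Ccnd2 had 440.0, 425 and 386 in the controls, 515 and 519.5 for knockouts 1 and 2, and 419.8 for the library labelled knockout 3 (0.31, SE 0.08, limma adjusted p = 0.080). DESeq2 called both cyclins higher, with adjusted p of 0.0088 and 0.0049.

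**Figure D2:**
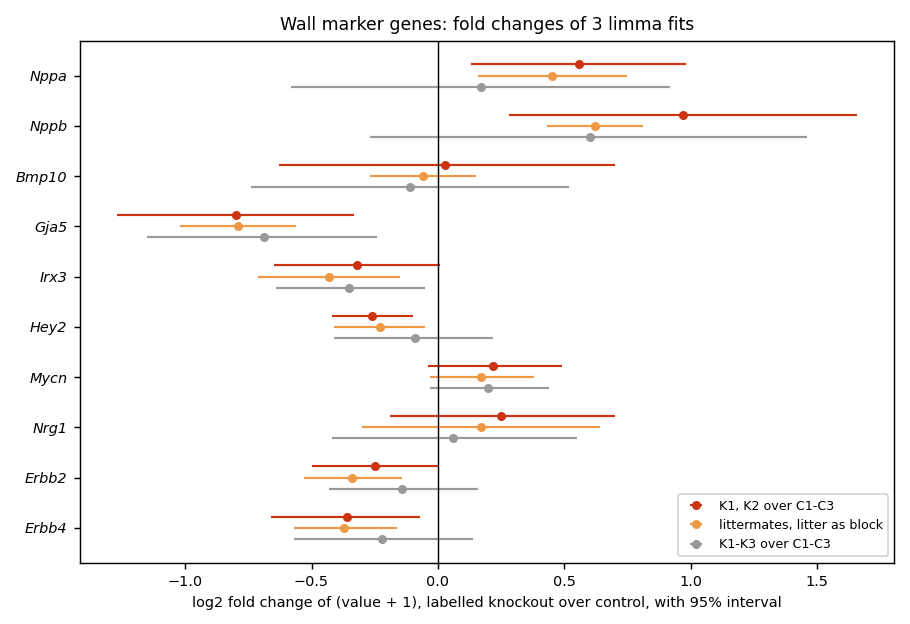
Log2 fold change of each wall marker gene, labelled knockout over control, with its 95% interval in 3 limma fits: knockouts 1 and 2 over 3 controls, only the littermates, blocked by litter, and all 6 libraries as labelled. Nppa and Nppb lie right of 0 and Gja5, Hey2, Erbb2 and Erbb4 left of it in the first fit (0.97 for Nppb, -0.80 for Gja5), and the block narrows most intervals.

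Of the other genes around Hey2 and Mycn, 26 of 28 Notch and Hey genes were measured. Among these 26, limma called 3 higher and 0 lower, against 3.01% and 1.24% of all genes. Dll4, an endothelial Notch ligand, rose from 17.8, 16.9 and 13.9 to 28.4 and 26.9, with 15.9 in the library labelled knockout 3 (log2 fold change 0.75, SE 0.13, limma adjusted p = 0.022). Notch3, a receptor of mural cells, rose from 29.8 ± 1.42 (SD, n = 3) to 40.3 and 44.8 (0.50, SE 0.09, limma adjusted p = 0.028). Mfng, a glycosyltransferase that modifies Notch receptors, rose from 3.22, 5.62 and 4.72 to 9.86 and 9.46 (0.97, SE 0.22), with a limma adjusted p that rounds to 0.05 and that edgeR put at 0.063. Hey2 is the only member of that list among the 10, and it stood on the other side of the controls. Leaving out knockout 1 or knockout 2 ended the calls of all 3 genes (limma adjusted p from 0.084 to 0.23), and leaving out control 2 ended them too (0.066 to 0.077). Mfng and Notch3 were also lost without control 1 (0.071 and 0.073) or control 3 (0.098 and 0.081).

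In the Myc network 19 of the 20 other genes were measured, and limma called 2 higher and 0 lower (3.01% and 1.24% of all genes). Mxi1, which encodes a Max partner that opposes Myc, rose from 40.7, 50.3 and 45.3 to 68.1 and 67.3 (log2 fold change 0.57, SE 0.10, limma adjusted p = 0.022), with 44.1 in the library labelled knockout 3. Odc1, the polyamine enzyme that Myc proteins induce, rose from 180.5, 203 and 203.0 to 253 and 264.5 (0.40, SE 0.08, limma adjusted p = 0.032), with 197 in the library labelled knockout 3. Both calls were lost without knockout 1 (limma adjusted p = 0.13 for Mxi1 and 0.11 for Odc1), without knockout 2 (0.098 and 0.13) and without control 3 (0.061 and 0.066). That of Odc1 was also lost without control 1 (0.063) or control 2 (0.097). The median of these 19 genes was 0.03.

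Nrg1 (ENSMUSG00000062991, chr8:31814551-32884029, minus strand) encodes the ligand that endocardium sends to muscle. It was the least abundant of the 10, with 28 to 51 reads a library. Signals were 3.99, 3.44 and 2.94 in the controls, 4.12 and 4.47 for knockouts 1 and 2, and 2.56 for the library labelled knockout 3. Knockouts 1 and 2 were above and the library labelled knockout 3 below all controls, by margins of few reads. The log2 fold change was 0.25 (SE 0.19, 95% interval -0.19 to 0.70, limma adjusted p = 0.56), so no difference was detected with these few reads and few embryos. Its exons share 482 bases with the antisense gene Gm26578.

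Erbb2 (ENSMUSG00000062312, chr11:98412470-98437716, plus strand) encodes the co-receptor that binds no ligand of its own and pairs with ErbB4. It had 171, 144 and 131 in the controls, 124.0 and 123.5 for knockouts 1 and 2, and 157 for the library labelled knockout 3. Knockouts 1 and 2 were almost equal and below every control, and the library labelled knockout 3 was among them. For Erbb2 the log2 fold change was -0.25 (SE 0.11, 95% interval -0.50 to 0.00, limma adjusted p = 0.29). In the littermate block fit it was -0.34 and called (limma adjusted p = 0.037), with -0.46 in litter 1 and -0.22 in litter 2, and the other alternatives gave adjusted p up to 0.86.

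Erbb4 (ENSMUSG00000062209, chr1:68032186-69108059, minus strand) encodes the receptor of muscle that binds neuregulin. Its signal was 86.5, 64.5 and 74.6 in the controls, 61.8 and 54.0 for knockouts 1 and 2, and 78.9 for the library labelled knockout 3. Both knockouts were again below every control, knockout 1 by a narrow margin. Erbb4 had a log2 fold change of -0.36 (SE 0.13, 95% interval -0.66 to -0.07, limma adjusted p = 0.18), and -0.37 with the block, which called it (limma adjusted p = 0.035, against up to 0.83 under the other alternatives). The ratio of Erbb2 to Erbb4 signal ranged from 1.75 to 2.23 in controls and was 2.01 and 2.29 for knockouts 1 and 2, and 1.99 for the library labelled knockout 3. Knockout 1 lay among the controls in this ratio.

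Beyond these 3, 27 of 33 genes of the neuregulin and ErbB list were measured. Among these 27, limma called 1 higher and 0 lower, against 3.01% and 1.24% of all genes. Errfi1, an inhibitor that binds ErbB receptors, rose from 14.5, 16.2 and 15.7 in the controls to 27.2 and 25.8 in knockouts 1 and 2, with 15.5 in the library labelled knockout 3 (log2 fold change 0.74, SE 0.11, limma adjusted p = 0.011, but 0.094 without knockout 1 and 0.058 without knockout 2). Tgfa, a ligand of the EGF receptor, had 15.0, 11.5 and 7.76 against 23.4 and 19.2, and 13.6 in the library labelled knockout 3 (0.88, SE 0.24, limma adjusted p = 0.098, and 0.011 with the block).

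Of the 22 genes of cardiac jelly and endocardial signals, through which the endocardium shapes trabeculae, limma called 2 higher and 1 lower. Over all genes these shares were 3.01% and 1.24%. Vegfa, the endothelial growth factor, rose from 150, 147 and 120.5 in the controls to 280.4 and 295 in knockouts 1 and 2, with 148 in the library labelled knockout 3 (log2 fold change 1.05, SE 0.10, limma adjusted p = 0.0014), and kept its call whichever of the 5 libraries was left out. Edn1, the endothelin peptide, rose from 6.55, 8.73 and 7.76 to 16.3 and 18.9, with 7.42 in the library labelled knockout 3 (1.10, SE 0.16, limma adjusted p = 0.0096, but 0.060 without knockout 1 and 0.080 without knockout 2). Its receptor gene Ednra fell from 56.1, 52.4 and 58.2 to 39.0 and 32.9, with 55.95 in the library labelled knockout 3 (-0.62, SE 0.10, limma adjusted p = 0.015, but 0.051 without control 3 and 0.075 without knockout 2).

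**Figure D3:**
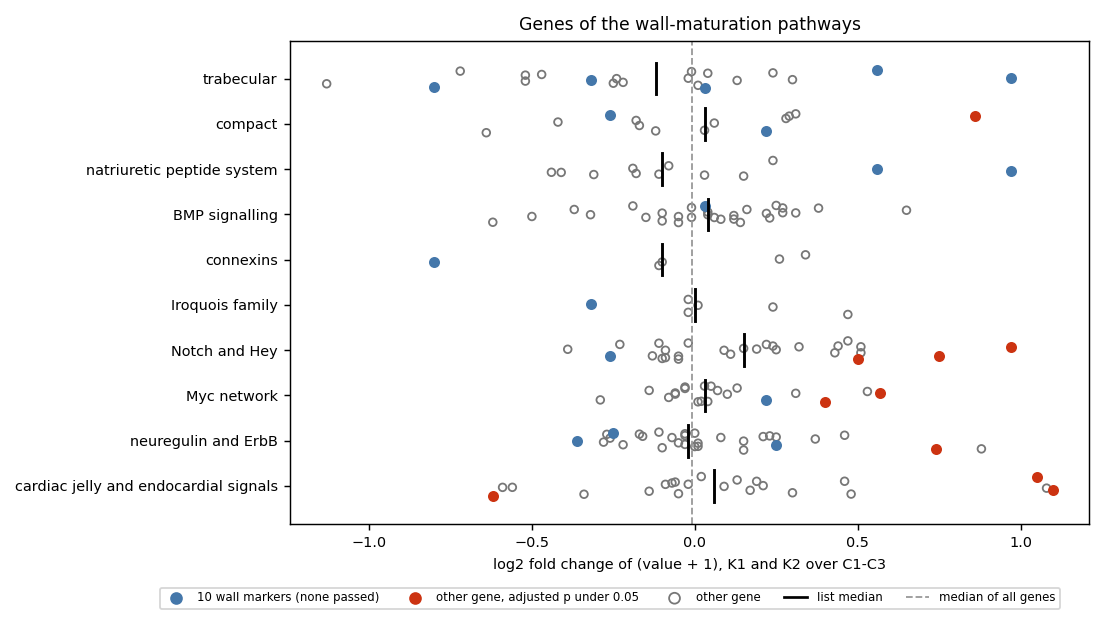
Log2 fold change (knockouts 1 and 2 over 3 controls) of every measured gene in the 10 pathway lists, with list medians as bars and the median of all genes as a dashed line. Blue points are the 10 wall markers, of which 0 passed, and red points the other genes with a limma adjusted p under 0.05, which sit in the compact, Notch and Hey, Myc network, neuregulin and jelly lists.

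The library labelled knockout 3 had values among the controls for 3 of the 10 genes (Nppb, Erbb2 and Erbb4), above them for 2 (Hey2 and Mycn) and below them for 5, where 56.1% of all genes lay among the controls. It was the lowest of the 6 libraries for Nppa, Bmp10 and Nrg1 and the highest for Hey2. On average the 5 trabecular genes stood at 7.60, 7.23 and 7.03 in controls on the log2 scale, 7.55 and 7.20 for knockouts 1 and 2, and 6.88 for the library labelled knockout 3. The same mean of Hey2 and Mycn was 6.35, 6.46 and 6.38 in controls, 6.30 and 6.45 for knockouts 1 and 2, and 6.60 for the library labelled knockout 3. In both means knockouts 1 and 2 were close to their own littermate controls, with Nppa and Nppb above and Gja5 below them in the first set.

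Markers of other cells were read beside these values. The 6 ventricular muscle markers, which were abundant in all 6 libraries as the labelled tissue requires, summed to between 27410 and 33540 in controls, 32830 and 28840 for knockouts 1 and 2, and 32130 for the library labelled knockout 3, with 0 called by limma and 0 at an unadjusted p under 0.05. Atrial markers, of which 6 of 8 were measured, summed to between 2737 and 2924 in controls, 3823 and 3283 for knockouts 1 and 2, and 2562 for the library labelled knockout 3, the same side of the controls as Nppa in all 3 libraries. Most of the difference of knockouts 1 and 2 came from Myl7, the atrial light chain, which rose from 643, 606 and 737 to 1275 and 1110, with 545 in the library labelled knockout 3 (log2 fold change 0.85, SE 0.11, limma adjusted p = 0.0059, but 0.056 without knockout 1). Of these 6 genes 1 was called higher and 0 lower, and the defining marker Sln was not analysed here. Both knockouts lay above all controls for 1 of the 6 (16.7%, against 18.1% of all genes) and below them for 0. The median log2 fold change of the 6 was 0.08, so the sum mostly reflects its abundant members. The part of atrial muscle in the Nppa and Nppb values was not tested.

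Epicardial markers summed to between 305 and 377.5 in controls, 725 and 629 for knockouts 1 and 2, and 345 for the library labelled knockout 3, and 3 of 7 were called higher. Over all genes limma called 3.01% higher. At an unadjusted limma p under 0.05, 6 of the 7 were higher and 0 lower, against 9.74% and 8.05% of all genes. In both knockouts 6 of the 7 (85.7%, against 18.1% of all genes) lay above all controls. Most of the difference of knockouts 1 and 2 in the epicardial sum came from Krt19. The log2 fold changes of the 7 were all above 0, with a median of 0.67. Krt19, a mesothelial keratin, rose from 43.8, 49.2 and 35.2 to 268 and 210.1 (log2 fold change 2.46, SE 0.15, limma adjusted p = 0.00023), a call kept whichever of the 5 libraries was left out. Wt1, the epicardial transcription factor, rose from 31.6, 28.9 and 37.1 to 52.9 and 57.0 (0.74, SE 0.12, limma adjusted p = 0.014, but 0.078 without knockout 1 and 0.090 without knockout 2). Upk1b, a uroplakin of mesothelium, rose by 0.85 (SE 0.19, limma adjusted p = 0.049), a call lost without knockout 1 (0.25), control 1 (0.12) or control 2 (0.16).

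Markers of endothelium and endocardium, the source of Nrg1, summed to between 1555 and 1635 in controls, 1764 and 1797 for knockouts 1 and 2, and 1489 for the library labelled knockout 3. Of 9 such genes 1, the endomucin gene Emcn, was called higher (0.48, SE 0.10, limma adjusted p = 0.040, but from 0.074 to 0.22 without control 2, control 3, knockout 1 or knockout 2). At an unadjusted limma p under 0.05, 4 of the 9 were higher and 0 lower, against 9.74% and 8.05% of all genes. In both knockouts 6 of the 9 (66.7%, against 18.1% of all genes) lay above all controls. Markers of the conduction system, where Gja5 and Irx3 are also made, rested on 3 of 7 genes. They summed to between 27.7 and 40.1 in controls, 20.2 and 31.0 for knockouts 1 and 2, and 18.4 for the library labelled knockout 3. Of these 3 genes limma called 0, against 3.01% of all genes higher and 1.24% lower. At an unadjusted limma p under 0.05 stood 1 of the 3, against 17.8% of all genes. Cushion markers ran from 1117 to 1557 in controls and stood at 1291 and 1360 for knockouts 1 and 2, with 907.5 in the library labelled knockout 3. Erythroid markers ran from 2242 to 5046 in controls with 2485, 4690 and 3993 in the labelled knockouts, and macrophage markers from 25.1 to 64.6 with 34.9, 36.5 and 38.8. In each of the last 3 lists limma called 0 genes, with 0 at an unadjusted p under 0.05. The part of any of these cells in the values of the 10 genes was not tested.

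**Figure D4:**
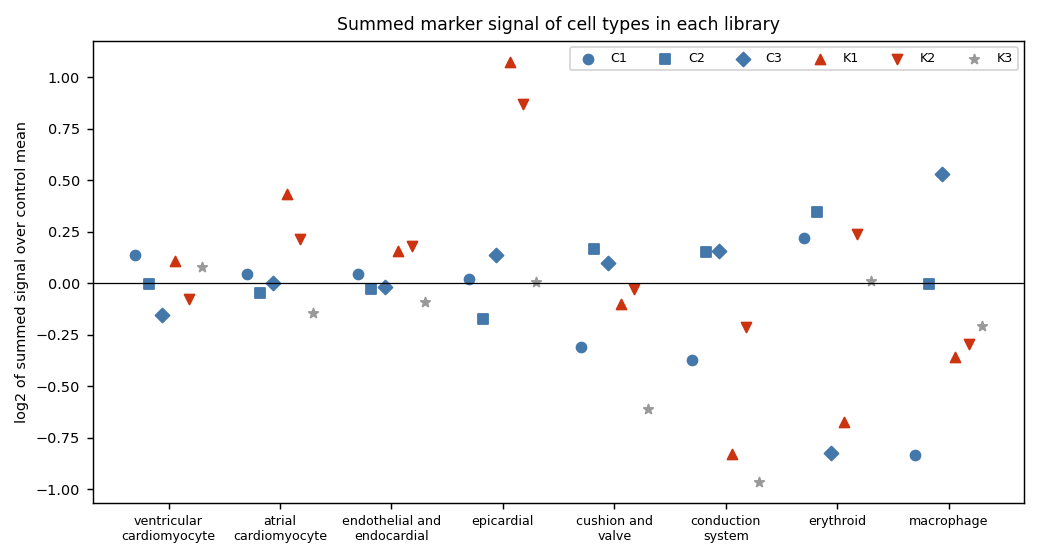
Summed normalized signal of each cell type's markers in each library, as log2 over the mean of the 3 controls (C1 to C3). Knockouts 1 and 2 (K1, K2) lie above all controls for the epicardial, atrial and endothelial sums, and the library labelled knockout 3 (K3) does not.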

How the data were processed

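Ventricular RNA of 6 single mouse embryos was measured by single-read sequencing of 75 bp with a TruSeq v2 kit, per the labels' protocols, a kit that does not mark strand. Per the submitters' processing notes reads passed through RSEM 1.2.3, cutadapt 1.3 and CASAVA 1.8.2 in an order not stated, on GRCm38. Scaling, filter and annotation release are not given in the sources used here. Deposited by the authors was 1 table with a normalized signal for 13843 genes in 6 columns, all of which were used, and its columns sum to between 987131 and 1017772. Divided by the smallest step of its column, 100% of values came out whole within 0.01 reads. The authors had thus scaled read counts by a library factor, which equalled edgeR's effective library size. The recovered totals were 9067805 to 12592902 reads, and counting error limits the precision of genes such as Nrg1. No gene had fewer than 3 libraries with a value of 1 or more. Names, coordinates and exon lengths came from GENCODE M21 (13675 genes had a symbol and 168 did not). RSEM can divide reads that fit several loci among them, but the recovered values were whole. How such reads were counted in the deposited table was not settled.

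The design had named limma for normalized values. limma 3.58.1 with trend, in R 4.3.3, was run on log2(value + 1) of the deposited signal, with no covariate, Benjamini-Hochberg adjustment over all genes and a threshold of 0.05. Fold changes are on that scale, which understates low genes. limma was first tested on simulated data. edgeR 4.0.16 and DESeq2 1.42.0 on the recovered reads were alternatives, and edgeR called 407 genes higher and 163 lower. Other alternatives changed the pseudocount, the filter, the scaling or the libraries. For all 6 libraries as labelled they were chosen after seeing the data.

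Litters in the labels pair control 1 with knockout 1 and control 2 with knockout 2. Deviations from the group means had a correlation over genes of 0.20 in litter 1 and 0.28 in litter 2, against 0.01 between control 3 and the library labelled knockout 3, which the labels put in different litters. The knockout mean included the library labelled knockout 3, so these correlations do not measure the litter alone. Named were the 10 genes, Vhl, the up to 4 genes of smallest p in each of 18 lists with all that passed, and the 3 genes most like Nppa, Bmp10, Hey2 and Mycn with a mean of at least 20. Npr3 and Corin fall outside this rule and were chosen after their values were seen. The members and lists were chosen with earlier results of these data known. A gene that the rule names is not reported here.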

Additional observations from a re-analysis of the deposited data

How the results depend on the processing

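With 2 knockouts against 3 controls, a gene that missed the threshold is not shown to have equal levels. Over the other alternatives, 45 of 50 leave-one-out values of the 10 genes and 82 of 89 values under other settings kept their direction and their side of the threshold. For the other named genes these were 141 of 185 and 284 of 332.

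Genes called higher, 416 in knockouts 1 and 2 over 3 controls, numbered from 146 (without knockout 1) to 297 when 1 library was left out (219 without control 2, 259 without control 3, 236 without knockout 2), 681 with litter as replicate block in litters 1 and 2, and 0 with all 6 libraries. Genes called lower, 172, numbered from 44 to 90, 276 by DESeq2, 444 with the block and 0 with all 6. Of the 10 genes, 0 to 1 were called higher with 1 library left out (Nppb without control 3) and 0 to 1 lower (Gja5 without knockout 1), DESeq2 called 1 lower (Hey2), and the block called 1 higher and 3 lower. Over all 6 libraries as labelled, DESeq2 called 7 genes higher and 4 lower, leaving out 1 library gave 0 to 416 higher and 0 to 172 lower (416 and 172 without the library labelled knockout 3, 1 higher without knockout 1 or 2), and the block, with the 4 litters of the labels, gave 669 and 459, with 1 of the 10 genes higher and 3 lower. Without the library labelled knockout 3 the comparison over all 6 is that of knockouts 1 and 2. In the block over all 6, control 3 and the library labelled knockout 3 are each alone in their litter. Its contrast therefore rests on litters 1 and 2 only, and its calls say nothing about the library labelled knockout 3. Bmp10 changed sign to -0.061 with the block and -0.11 with all 6 libraries, and ran from -0.33 to 0.40 with 1 library left out. Gja1 ran from -0.078 (without knockout 1) to 0.60 (without knockout 2). Apart from the 4 named calls the block changed no call of the 10 genes. The causes were not tested.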

Other observations

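The genes whose values over the 6 libraries were most like those of Nppa, by root mean square difference of centred log2 values among 7767 genes with a mean of at least 20, were Itgav (0.15), Tm4sf1 (0.157) and Hand1 (0.178). Itgav, the alpha V integrin, had 126, 97.9 and 117 in controls, 176 and 155 for knockouts 1 and 2, and 81.2 for the library labelled knockout 3. Tm4sf1, a tetraspanin-like membrane protein, had 91.0, 80.4 and 68.9 in controls, 133 and 85.9 for knockouts 1 and 2, and 62.3 for the library labelled knockout 3. Hand1, a transcription factor of the left ventricle, had 40.5, 32.9 and 26.6 in controls, 47.04 and 31.1 for knockouts 1 and 2, and 21.3 for the library labelled knockout 3. In each of them, as in Nppa, the library labelled knockout 3 was the lowest of the 6.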
